A study of Caenorhabditis elegans with 9 samples.

Results

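The cytosolic heat shock protein genes of Caenorhabditis elegans were examined across the 9 libraries of a study of the DAF-7 TGFβ pathway. The 9 genes were chosen by name: the small heat shock protein genes hsp-16.1, hsp-16.2, hsp-16.41, hsp-16.48, hsp-16.49 and hsp-12.6, the HSP70 genes hsp-70 and hsp-1, and daf-21, the HSP90 gene. Each of the 9 names had an entry of its own, joined to no other gene, among the 40313 entries of the deposited gene table, which lists FPKM, a fragment count scaled to transcript length and to the mapped fragments of the library.

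The libraries came from 3 genotypes with 3 biological replicates each: single mutants for daf-1(m40), double mutants that carry daf-1(m40) together with daf-3(mgDf90), and the wild-type strain Bristol N2. daf-1 encodes a TGFβ type I receptor, and daf-3 encodes a co-SMAD that is active when signalling through DAF-1 is lost. The double mutant was made by crossing, and no daf-3 single mutant was sequenced. All worms were synchronized hermaphrodites, kept at 16 °C up to the L4 larval stage and moved to 25 °C, where by the labels they spent 25 h, and RNA was taken from pooled whole gravid adults. Every library therefore came from worms at the higher temperature, and no library from worms kept at 16 °C was there to compare with. Replicates 1, 2 and 3 of each genotype are the study's batches 1, 2 and 3.

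In C. elegans the heat shock response is driven by the transcription factor HSF-1, which binds heat shock elements in the promoters of chaperone genes when unfolded proteins accumulate. The hsp-16 genes and hsp-70 are nearly silent in unstressed worms and are strongly induced by heat, whereas hsp-1 and daf-21 are expressed at all times, as the main cytosolic HSP70 and HSP90 of the unstressed cell. In whole animals of this age a large part of the RNA comes from the germ line and from embryos in the uterus, so that fewer cells of a type and less RNA per cell cannot be told apart in these values.

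The labels held for the mutated genes: daf-3 was at 0 to 0.0147 FPKM in the 3 double mutant libraries, against 18.8 to 22.5 FPKM in the other libraries, and daf-1 was at 12.8 to 14.5 FPKM in the 6 mutant libraries, against 21.6 to 23.7 FPKM in N2. Replicate 3 of the double mutant stood apart. Its nearest library over all tested entries was N2 replicate 3 (Pearson r = 0.955), whereas the nearest library of each of the other 8 was of its own genotype, and the study left it out. The main values here therefore rest on the other 8 libraries, and values from all 9 are given beside them. Relative depth, read from the smallest steps of the FPKM values, ranged over 1.53-fold among libraries.

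The heat-inducible hsp-16 genes sit in divergent pairs on chromosome V (build WBcel235). hsp-16.2 (V, 1804334 to 1804957, minus strand) and hsp-16.41 (V, 1805178 to 1805875, plus strand) are transcribed away from each other with 220 bases between them. The other locus is an inverted repeat. There hsp-16.1 (V, 9087293 to 9087782, minus strand) and hsp-16.48 (V, 9088131 to 9088617, plus strand) form 1 pair, and hsp-16.49 (V, 9089280 to 9089766, minus strand) and hsp-16.11 (V, 9090077 to 9090604, plus strand) form its mirror image, each unit spanning 1325 bases. Each of these genes has 2 exons. hsp-16.11, which was not among the 9 genes, is the near-identical twin of hsp-16.1, and hsp-16.49 is the twin of hsp-16.48, so reads from twins cannot be told apart and the level of either twin alone is uncertain.

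**Figure D1:**
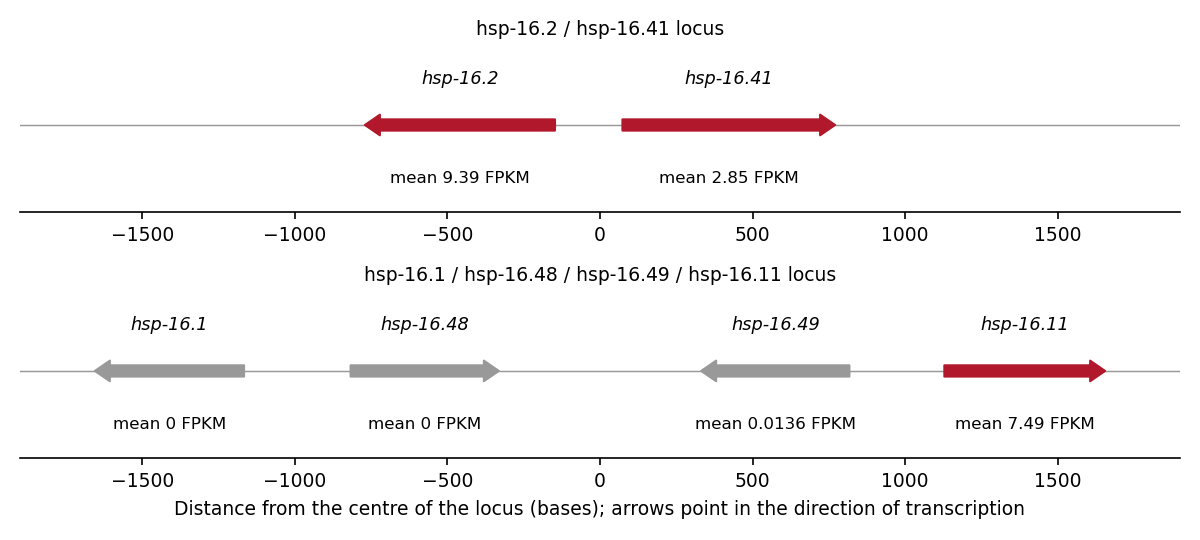
Maps of the 2 hsp-16 loci, drawn to scale as distance in bases from the centre of each locus, with arrows in the direction of transcription and the mean FPKM over the 9 libraries under each gene. hsp-16.2 and hsp-16.41 were both detected, while at the inverted repeat hsp-16.11 held nearly all of the listed signal, at a mean of 7.49 FPKM (red, mean above 1 FPKM; grey, below).

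At the inverted repeat the deposited values were concentrated in 1 of the 4 genes. hsp-16.1 and hsp-16.48 were listed at 0 in all 9 libraries. hsp-16.49 was listed at 0.122 FPKM in daf-1 replicate 3 and at 0 in the other 8 libraries. The twin hsp-16.11 was at 11.3, 2.69 and 4.73 FPKM in daf-1, at 3.96, 4.0 and 1.95 FPKM in the double mutant and at 19.7, 7.44 and 11.7 FPKM in N2. The 0 listed for hsp-16.1, beside a twin detected in every library, gives no level of that gene apart from its twin. None of these 3 entries reached 0.5 FPKM in 2 libraries, the minimum for testing, so 6 of the 9 genes were tested.

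hsp-16.2 was the most abundant of the small heat shock protein genes among the 9. It was at 14.2, 4.2 and 4.53 FPKM in daf-1, at 5.43, 4.17 and 2.68 FPKM in the double mutant and at 19.1, 10.4 and 19.8 FPKM in N2. All 3 double mutant libraries lay below all 3 N2 libraries, and daf-1 replicate 1 alone among the mutant libraries reached into the N2 range. Its divergent neighbour hsp-16.41, which encodes another alpha-crystallin family chaperone, followed it at a lower level. hsp-16.41 was at 4.41, 0.784 and 0.936 FPKM in daf-1, at 1.71, 1.57 and 0.303 FPKM in the double mutant and at 6.83, 2.59 and 6.51 FPKM in N2. Here too the double mutant and N2 did not overlap, and daf-1 replicate 1 was the only mutant library within the N2 range. The FPKM of hsp-16.2 was 2.66 to 8.85 times that of hsp-16.41, with the highest ratio in double mutant replicate 3.

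hsp-70 (chromosome I, 9320325 to 9322519, minus strand), the heat-inducible HSP70, lies wholly within the span of uggt-2 on the opposite strand, and uggt-2 itself was at 0.104 to 0.221 FPKM. hsp-70 was at 6.20, 1.06 and 1.30 FPKM in daf-1, at 0.698, 1.12 and 0.889 FPKM in the double mutant and at 3.67, 1.58 and 3.01 FPKM in N2. daf-1 replicate 1 was the highest of all 9 libraries, above every N2 library, whereas the other 2 daf-1 libraries lay below every N2 library. F44E5.4, another heat-inducible HSP70 gene with a near-identical divergent neighbour, F44E5.5, was at 3.54, 0.403 and 0.681 FPKM in daf-1, at 0.193, 0.577 and 0.572 FPKM in the double mutant and at 5.68, 1.51 and 2.58 FPKM in N2. F44E5.5 was at 0 to 0.129 FPKM and was not tested.

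**Figure D2:**
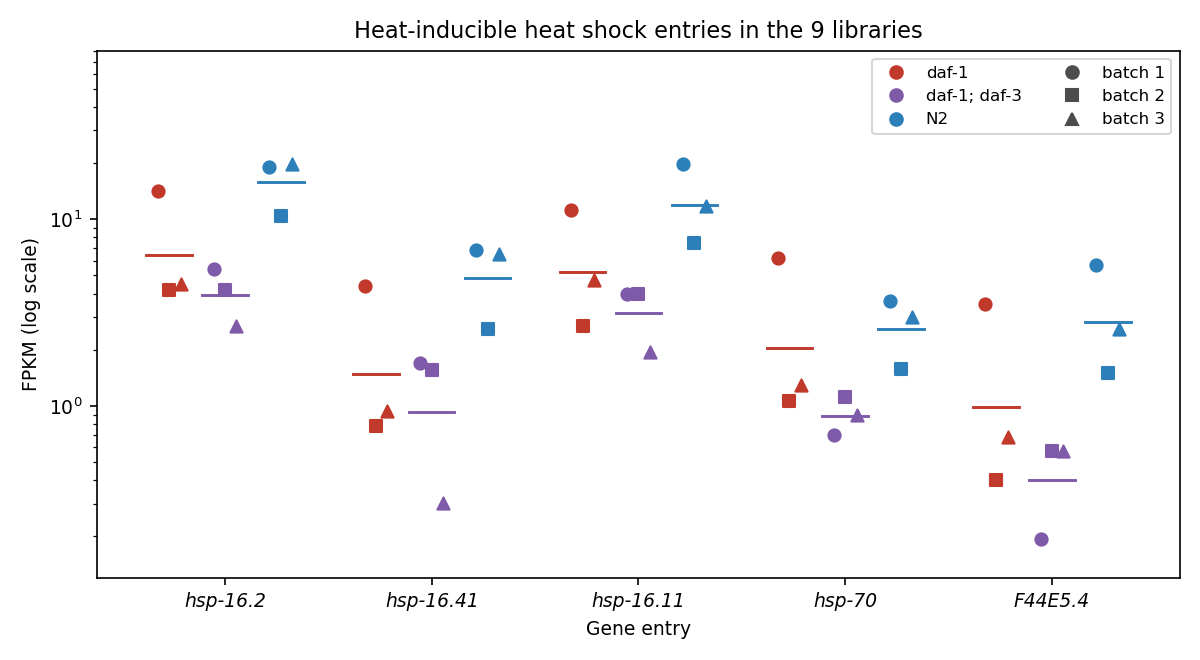
FPKM of hsp-16.2, hsp-16.41, hsp-70 and of the related entries hsp-16.11 and F44E5.4 in each library, on a log axis, with genotype by colour, batch by symbol and the geometric mean of 3 libraries as a line. In all 5 entries the daf-1 replicate 1 point stands well above the other 2 daf-1 points, and the double mutant points lie below the N2 points.

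The inducible entries moved together across libraries. Averaged over hsp-16.2, hsp-16.41, hsp-16.11, hsp-70 and F44E5.4, the deviation from each entry's own mean on the log2(FPKM + 0.25) scale was 1.2, -0.93 and -0.57 in daf-1 replicates 1, 2 and 3, -0.78, -0.58 and -1.29 in the double mutant and 1.55, 0.27 and 1.13 in N2. The libraries at the high end were thus N2 replicates 1 and 3 and daf-1 replicate 1. Over the 9 libraries, which share genotype and batch, Pearson's r of hsp-16.2 was 0.970 with hsp-16.41, 0.963 with hsp-16.11, 0.881 with F44E5.4 and 0.845 with hsp-70. Outside the heat shock and chaperone lists the 5 tested entries most like hsp-16.2 by this measure were the joined entry of Y54F10BM.9 with 21ur-10824 and 21ur-11898 (r = 0.977), fbxb-45 (0.976), pcbd-1 (0.952), sor-3 (0.945) and 21ur-10392 (0.944). fbxb-45, for example, was at 7.09, 5.29 and 4.95 FPKM in daf-1, at 5.04, 4.62 and 4.47 FPKM in the double mutant and at 8.93, 6.49 and 8.26 FPKM in N2, a narrower range than that of hsp-16.2.

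Within genotypes the inducible genes varied more than most of the table. The SD of replicates about their genotype mean, over 8 libraries on the log2 scale, was 0.70 for hsp-16.2, 0.89 for hsp-16.41 and 0.89 for hsp-70, against a median of 0.20 over the 13751 tested entries. Entries within 2-fold of the same mean level had median SDs of 0.20, 0.31 and 0.33 around hsp-16.2, hsp-16.41 and hsp-70 in that order. The SD was 0.15 for hsp-1 and 0.12 for daf-21, close to the medians of 0.17 and 0.16 at their levels.

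hsp-12.6 encodes a small heat shock protein that is not induced by heat and is a known target of DAF-16, the FOXO factor of the insulin pathway (chromosome IV, 9446229 to 9447228, minus strand, with hsp-12.3 next to it). It was at 0.830, 0.721 and 0.654 FPKM in daf-1, at 0, 0.393 and 0.322 FPKM in the double mutant and at 0.801, 0.371 and 0.135 FPKM in N2. The daf-1 libraries overlapped N2, and all 9 values were at or below 0.830 FPKM, close to the 0.5 FPKM minimum for testing. Its r with hsp-16.2 over the 9 libraries was 0.10.

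The 2 constitutive genes were far more abundant, at means over the 9 libraries of 1705 FPKM for hsp-1 and 1032 FPKM for daf-21 against 9.39 FPKM for hsp-16.2, and they moved as a pair. hsp-1 (chromosome IV, 17278959 to 17281330, plus strand) encodes the constitutive cytosolic HSP70 and ranked 78 by mean FPKM among the 40127 named entries. It was at 1412, 1527 and 1315 FPKM in daf-1, at 1976, 1907 and 1227 FPKM in the double mutant and at 2159, 2160 and 1663 FPKM in N2. All daf-1 libraries lay below all N2 libraries, and double mutant replicate 3 was the lowest of the 9. daf-21, named hsp-90 in the current annotation (chromosome V, 14684918 to 14688545, plus strand), ranked 145. It overlaps C47E8.4 on the opposite strand in part, and reads of the 2 genes there cannot be told apart without strand. It was at 895, 887 and 824 FPKM in daf-1, at 1230, 1153 and 742 FPKM in the double mutant and at 1311, 1214 and 1032 FPKM in N2. The order of the means of 3 libraries and the lowest library were the same as for hsp-1. Without double mutant replicate 3 the double mutant mean of daf-21 was 1191.5 FPKM, against 1185.8 FPKM in N2. That of hsp-1 was 1941.4 FPKM, against 1993.9 FPKM. The FPKM of hsp-1 was 1.58 to 1.78 times that of daf-21 in every library, and their r over 9 libraries was 0.985. The order of levels was hsp-1, daf-21, hsp-16.2 in each genotype, although the libraries of hsp-1 and daf-21 overlapped in the double mutant and those of hsp-16.2 and hsp-70 in daf-1, and hsp-16.41 and hsp-70 overlapped each other in all 3 genotypes.

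**Figure D3:**
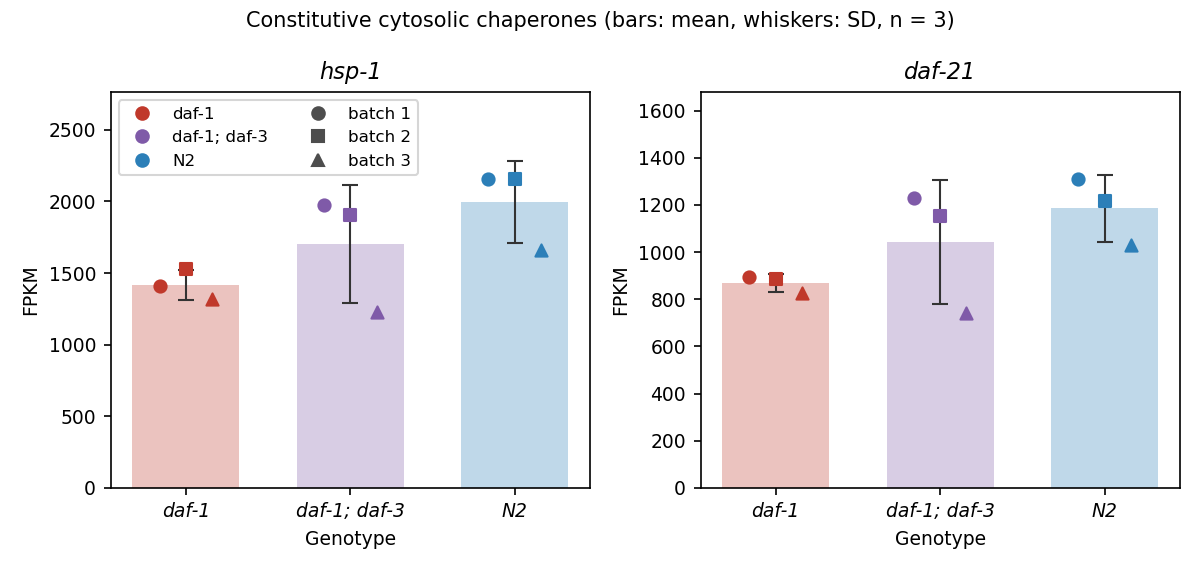
FPKM of hsp-1 and daf-21 by genotype, on a linear axis from 0, with bars at the mean, whiskers of 1 SD (n = 3) and each library as a point marked by batch. The daf-1 points of both genes lie below all N2 points, and double mutant replicate 3 (triangle) is the lowest of the 9 libraries, at 1227 FPKM for hsp-1 and 742 FPKM for daf-21.

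Genotypes were compared with limma on log2(FPKM + 0.25), a scale that understates changes of low genes. A gene was called where the difference was at least 2-fold and the p, adjusted by Benjamini-Hochberg across every entry tested, was below 0.05. The 3 comparisons share libraries, so their values are given side by side. Counts of genes with an unadjusted p below 0.05 are also given, but the share of all entries at that threshold was not computed. It is at least the share with an adjusted p below 0.05. With 8 libraries in limma that was 28.6% in daf-1 against N2 and 37.1% in daf-1 against the double mutant. No excess over the table can be read from the unadjusted counts.

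In daf-1 mutants against N2, 0 of the 6 tested genes were called in the 8-library limma fit, where 7.22% of all tested entries were called, and 4 of the 6 had an unadjusted p below 0.05. hsp-16.2 averaged 7.65 ± 5.70 FPKM in daf-1 and 16.414 ± 5.25 FPKM in N2 (SD, n = 3 each), a log2 difference of -1.25 ± 0.45 (SE) with an adjusted p of 0.064. hsp-16.41 averaged 2.04 ± 2.05 FPKM in daf-1 and 5.31 ± 2.36 FPKM in N2, a log2 difference of -1.52 ± 0.58 with an adjusted p of 0.075. These calls depended on the libraries and on the fit. Without daf-1 replicate 1 the differences were -1.80 and -2.21, with adjusted p-values of 0.0094 and 0.016, and both genes were called lower, as were 0.928% of all entries tested in that fit. With batch as a replicate block, 8 libraries, the differences stayed at -1.25 and -1.52, the adjusted p-values were 0.032 and 0.045, and both were called lower beside 1.01% of all tested entries. Neither was called with all 9 libraries, with adjusted p-values of 0.12 and 0.17 without the block and of 0.050 and 0.091 with it. Equal median scaling called both, with adjusted p-values of 0.029 and 0.037. Over the alternatives run, the adjusted p ranged from 0.0094 to 0.18 for hsp-16.2 and from 0.016 to 0.22 for hsp-16.41. The related hsp-16.11 and F44E5.4 differed by -1.15 (adjusted p = 0.10) and -1.23 (adjusted p = 0.19). hsp-70 differed by -0.28 ± 0.58, with a 95% interval from -1.60 to 1.05, and hsp-12.6 by 0.64 ± 0.47. Without daf-1 replicate 1 the difference of hsp-70 was -1.0 (adjusted p = 0.093).

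hsp-1 and daf-21 were lower in daf-1 mutants by less than 2-fold. hsp-1 averaged 1418 ± 106 FPKM in daf-1 and 1994 ± 287 FPKM in N2, a log2 difference of -0.48 ± 0.13 with an adjusted p of 0.028. daf-21 averaged 869 ± 38.9 FPKM in daf-1 and 1186 ± 141.99 FPKM in N2, a log2 difference of -0.44 ± 0.11 with an adjusted p of 0.022. An adjusted p below 0.05 in the lower direction was common in this comparison, at 15.6% of all tested entries, and 29.2% of tested entries had every daf-1 library below every N2 library, as these 2 of the 6 genes did. Leaving out 1 library at a time gave adjusted p-values of 0.0078 to 0.10 for hsp-1 and 0.0082 to 0.085 for daf-21, lowest without N2 replicate 3, and both exceeded 0.05 on leaving out any daf-1 library or N2 replicate 1 or 2. With all 9 libraries the adjusted p-values were 0.13 for hsp-1 and 0.15 for daf-21, and with the replicate block added they were 0.035 and 0.049. Without the block 0 of the 6 genes were called (3 with an unadjusted p below 0.05), and 4.61% of all entries were.

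In daf-1 mutants against the double mutant, 0 of 6 genes were called with 8 libraries in limma (3 with an unadjusted p below 0.05), where 12.7% of all tested entries were called. hsp-1 and daf-21 were lower in daf-1 by -0.46 ± 0.15 (adjusted p = 0.039) and -0.46 ± 0.12 (adjusted p = 0.023) on the log2 scale, as 19.3% of all tested entries were lower at this threshold. These differences depended on the libraries and on scaling. With all 9 libraries they were -0.24 and -0.23, with adjusted p-values of 0.45 and 0.44, and after quantile normalization of the 8 libraries they were -0.03 and -0.12, with adjusted p-values of 0.77 and 0.25. Leaving out 1 more of the 8 libraries gave adjusted p-values of 0.012 to 0.17 for hsp-1 and 0.0086 to 0.13 for daf-21, the highest without double mutant replicate 1 and the lowest without N2 replicate 3. Without double mutant replicate 1 or 2 that genotype has 1 library, which is then assumed to vary like the other genotypes. For hsp-1 the value stayed below 0.05 only without N2 replicate 2 or 3. hsp-16.2 differed by 0.43 ± 0.50 (95% interval -0.70 to 1.56), hsp-16.41 by -0.08 ± 0.65 (95% interval -1.55 to 1.4) and hsp-70 by 1.05 ± 0.65 (95% interval -0.44 to 2.53), intervals that include differences of more than 2-fold. hsp-12.6 averaged 0.735 ± 0.0887 FPKM in daf-1 and 0.196 ± 0.278 FPKM in double mutant replicates 1 and 2, a log2 difference of 1.29 ± 0.52 (adjusted p = 0.080) that had an adjusted p of 0.030 without double mutant replicate 2 and of 0.46 without replicate 1, the library listed at 0, each fit again with 1 double mutant library and its spread taken from the other genotypes. With all 9 libraries 0 of 6 genes were called (1 with an unadjusted p below 0.05), beside 1.17% of all entries.

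In the double mutant against N2, 0 of 6 genes were called with 8 libraries in limma (1 with an unadjusted p below 0.05), where 8.9% of all tested entries were called. The largest difference among the 6 tested genes was that of hsp-16.2, which averaged 4.80 ± 0.893 FPKM in double mutant replicates 1 and 2 and 16.414 ± 5.25 FPKM in N2, a log2 difference of -1.68 ± 0.50 with an adjusted p of 0.052. hsp-16.41 differed by -1.45 ± 0.65 (adjusted p = 0.17) and hsp-70 by -1.33 ± 0.65 (adjusted p = 0.21). The related hsp-16.11 and F44E5.4 differed by -1.53 (adjusted p = 0.093) and -2.35 (adjusted p = 0.070). hsp-1 and daf-21 differed by -0.03 ± 0.15 and 0.01 ± 0.12, with 95% intervals of -0.36 to 0.30 and -0.26 to 0.29, and by -0.46 and -0.36 after quantile normalization, with adjusted p-values of 0.0066 and 0.015.

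With all 9 libraries hsp-16.2, hsp-16.41 and the related hsp-16.11 (-1.85) lay further below N2 in the double mutant. The difference of hsp-70 was unchanged, and that of F44E5.4 was smaller, at -2.20. hsp-16.2 differed by -1.93 ± 0.48 (adjusted p = 0.061), hsp-16.41 by -2.04 ± 0.70 (adjusted p = 0.17) and hsp-70 by -1.33 ± 0.58 (adjusted p = 0.30), 0 of 6 genes were called (3 with an unadjusted p below 0.05), and 2.84% of all entries were. For hsp-16.2, hsp-16.41 and hsp-70, 3 of the 6 tested genes, every double mutant library was below every N2 library, against 6.92% of all tested entries. With the replicate block, hsp-16.2 was called lower at -1.72 (adjusted p = 0.033) with 8 libraries, beside 4.73% of all entries called lower, and at -1.93 (adjusted p = 0.026) with 9 libraries, beside 0.604%. The adjusted p of hsp-16.2 ranged from 0.010 to 0.19 over the alternatives. Within batches 1, 2 and 3 the difference of hsp-16.2 was -1.77, -1.26 and -2.77, that of hsp-16.41 was -1.86, -0.64 and -3.61, and that of hsp-70 was -2.05, -0.41 and -1.52.

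**Figure D4:**
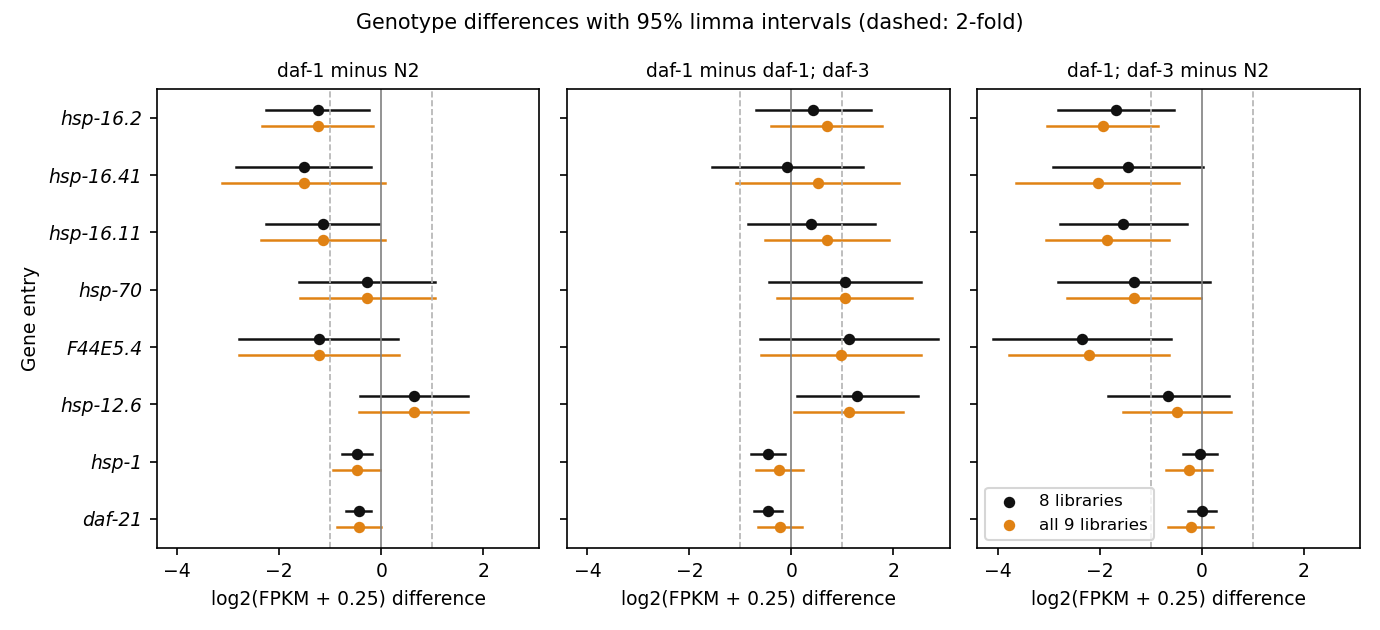
Log2 differences of the 6 tested genes and of hsp-16.11 and F44E5.4 between genotypes, with 95% limma intervals from 8 libraries (black) and from all 9 (orange). Dashed lines mark 2-fold. The differences of hsp-16.2 and hsp-16.41 from N2 are at or beyond the 2-fold line in both mutants, with wide intervals, while those of hsp-1 and daf-21 are narrow and within it.

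Batch was compared over all 9 libraries, each batch holding 1 library of each genotype. In batch 3 against batches 1 and 2, 0 of 6 genes were called in limma (2 with an unadjusted p below 0.05), as were 0.0216% of all tested entries. hsp-1 and daf-21 were at -0.40 ± 0.10 and -0.36 ± 0.11 on the log2 scale (adjusted p = 0.10 and 0.10), and the 95% intervals of hsp-16.2, hsp-16.41 and hsp-70 ran from -1.07 to 0.37, -1.84 to 0.47 and -1.29 to 0.87. Batch 3 holds double mutant replicate 3, the lowest library of both hsp-1 and daf-21. Over 14 alternatives the adjusted p ranged from 0.043 to 0.37 for hsp-1 and from 0.044 to 0.38 for daf-21. It was below 0.05 in only 1 of them, the fit without daf-1 replicate 3. The share of all entries below 0.05 in that fit was not computed.

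Most entries of the CCT and cochaperone lists were also lower in daf-1. Of 22 entries that hold CCT chaperonin subunits, which fold actin and tubulin, or HSP70 and HSP90 cochaperones, 16 were lower in daf-1 than in N2 at an adjusted p below 0.05 and 0 were higher, beside 15.6% of all tested entries lower, with a median log2 difference of -0.32 against 0.02 over all tested entries. Against the double mutant 16 of the 22 were lower and 0 higher, beside 19.3% of all tested entries lower, with a median of -0.37 against 0.00 over all. 0 of the 22 reached 2-fold. The myosin chaperone gene unc-45 was at -0.04 and the BAG-domain gene unc-23 at -0.25 in daf-1 against N2, and at 0.15 and 0.55 against the double mutant (adjusted p = 0.28 and 0.056). In the fit of all 9 libraries 0 of the 22 had an adjusted p below 0.05 in either comparison, with medians of -0.32 and -0.24. With the replicate block and all 9 libraries, 10 of the 22 were lower in daf-1 than in N2, beside 9.38% of all tested entries, and 0 were lower than in the double mutant. Examples in daf-1 against N2 were cct-1 (-0.46 ± 0.11), the HSP70 cochaperone dnj-12, a J-domain protein (-0.47 ± 0.09), C01G10.8, whose product is an AHA1-type activator of HSP90 (-0.58 ± 0.10), and sti-1, which links HSP70 to HSP90 (-0.38 ± 0.11). hsp-110, the nucleotide exchange factor for HSP70, was lower by the same size (-0.38 ± 0.11), and hsp-60, the mitochondrial chaperonin, was at -0.64 ± 0.11. hsf-1 itself was at 55.3, 53.0 and 54.8 FPKM in daf-1, at 70.04, 57.9 and 56.0 FPKM in the double mutant and at 64.01, 65.2 and 56.7 FPKM in N2, and of the 4 entries for HSF-1 and its regulators 1, that of ddl-2, had an adjusted p below 0.05 (-0.27 ± 0.09 in daf-1 against N2).

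Germ line markers, sperm genes apart, and oocyte markers moved in the same direction in the same libraries. Of 10 marker entries, 7 were lower in daf-1 than in N2 at an adjusted p below 0.05, beside 15.6% of all tested entries. Against the double mutant 10 were lower, beside 19.3% of all tested entries, and 0 were higher in either comparison. The median log2 differences were -0.39 and -0.46, against 0.02 and 0.00 over all tested entries. The summed FPKM of the 4 germ line markers was 748 to 815 in daf-1, 791 to 1157 in the double mutant and 925 to 1142 in N2. The sum of the 6 oocyte and early embryo markers was 1994 to 2157 in daf-1, 2020 to 3052 in the double mutant and 2430 to 2816 in N2. None of these markers was at 0. Body wall muscle markers ran the other way, with a sum of 710 to 901 FPKM in daf-1, 497 to 864 FPKM in the double mutant and 432 to 477 FPKM in N2. With all 9 libraries 1 of the 10 germ line and oocyte markers was lower in daf-1 than in N2 at this threshold and 0 were lower than in the double mutant. With the replicate block added these counts were 5, beside 9.38% of all tested entries, and 1. The shares beside the other counts with 9 libraries were not computed. The part of tissue composition in the values of hsp-1, daf-21 and the cochaperones was not tested.

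Among the other small heat shock protein genes the direction was mixed. Of 10 tested entries, 3 were higher and 1 lower in daf-1 than in N2 at an adjusted p below 0.05, none of them by 2-fold, beside 13% of all tested entries higher and 15.6% lower. In daf-1 against the double mutant 2 of the 10 were called, both higher, beside 12.7% of all tested entries called. hsp-12.1 was called higher in daf-1 than in the double mutant (1.53 ± 0.19, adjusted p = 0.0028) and lower in the double mutant than in N2 (-1.15 ± 0.19, adjusted p = 0.0052). hsp-12.2 was called higher in daf-1 than in the double mutant (1.26 ± 0.24, adjusted p = 0.0087). These calls came from double mutant replicates 1 and 2, at 6.06 and 7.64 FPKM for hsp-12.1 and 21.01 and 25.1 FPKM for hsp-12.2, since replicate 3 was at 23.1 and 54.6 FPKM. With all 9 libraries and no replicate block, 0 of the 10 were called. With the block and 9 libraries limma called 1, hsp-16.11, lower in the double mutant than in N2 (-1.85, adjusted p = 0.039), beside 0.604% of all entries called lower. With the block of 8 libraries hsp-16.11 was called lower than in N2 in daf-1 (adjusted p = 0.045) and in the double mutant (adjusted p = 0.048). Beside these calls 1.01% and 4.73% of all entries were called lower. hsp-43 was lower in daf-1 than in N2 (-0.80 ± 0.11, adjusted p = 0.0020). sip-1, an embryonic small heat shock protein gene, was the most abundant of all, at 3723 to 5277 FPKM. Molting markers, which peak in larvae before each molt, summed to 94.4 to 109 FPKM in daf-1, 30.5 to 123 FPKM in the double mutant and 69.5 to 118 FPKM in N2. The highest double mutant sum was that of replicate 3, which is not in the 8-library fit. In that fit 4 of the 6 molting markers were called higher in daf-1 than in the double mutant, beside 12.7% of all tested entries called. In the double mutant 4 of the 6 were called lower than in N2, beside 8.9% called. With all 9 libraries 0 of the 6 were called in either comparison. The part of developmental timing in the calls of hsp-12.1 and hsp-12.2 was not tested.

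Of 7 DAF-16 pathway entries other than hsp-12.6, 1 was called in daf-1 against N2, beside 7.22% of all tested entries, and 2 against the double mutant, beside 12.7%. sod-3, a mitochondrial superoxide dismutase gene, was at 2.42, 1.71 and 1.18 FPKM in daf-1, at 0.204, 0.347 and 0.237 FPKM in the double mutant and at 1.03, 0.564 and 0.481 FPKM in N2. It was called higher in daf-1 than in both (1.1 ± 0.34 against N2, adjusted p = 0.042, and 1.91 ± 0.38 against the double mutant, adjusted p = 0.0093), and against the double mutant also with all 9 libraries (1.94 ± 0.33, adjusted p = 0.028). mtl-1, a metallothionein gene, was called higher in daf-1 than in the double mutant with 8 libraries (1.93 ± 0.34, adjusted p = 0.0072), with double mutant replicate 3, not in that fit, at 357 FPKM against 27.3 and 13.9 FPKM in replicates 1 and 2.

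**Figure D5:**
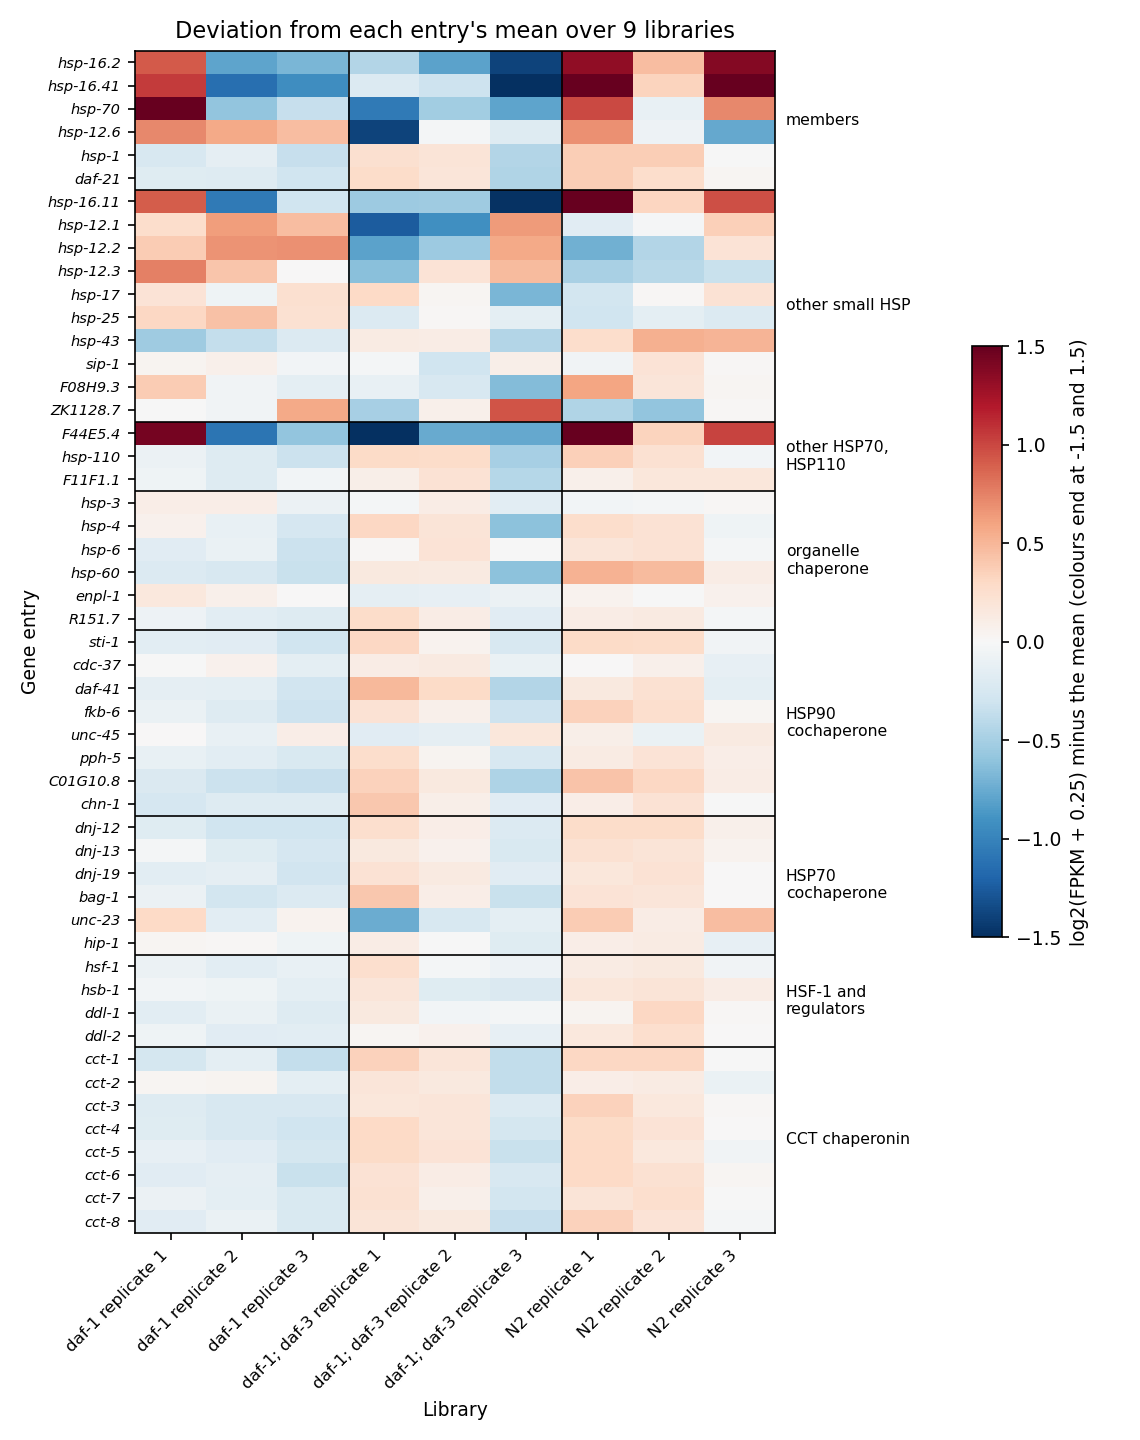
Deviation of each entry from its own mean over the 9 libraries, on the log2(FPKM + 0.25) scale, for the 6 tested genes and the other heat shock, chaperone and cochaperone entries, grouped by list. Red is above the mean and blue below. The inducible entries (hsp-16.2, hsp-16.41, hsp-16.11, hsp-70, F44E5.4) share 1 pattern, high in N2 replicates 1 and 3 and daf-1 replicate 1, and hsp-1, daf-21 and most CCT subunits and cochaperones share another, below the mean in daf-1 and in double mutant replicate 3.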

How the data were processed

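Gene-level FPKM values, deposited as 1 table of 9 libraries, were the only input, and depth in reads was not used. According to the submitters' processing notes and the study's methods, the authors used bcl2fastq 1.8.4 for demultiplexing, Trim Galore 0.4.0 for trimming and TopHat2 2.0.12 for alignment (WBcel235), and FPKM came from Cufflinks, which can split reads between near-identical genes. The strand setting is not given in the sources used here. The 186 entries without a gene name, 0.0502% to 0.257% of summed FPKM, were left out. Values were tested as log2(FPKM + 0.25) with limma 3.58.1 in R 4.3.3 (trended empirical Bayes, genotype as the only term, entries with at least 0.5 FPKM in at least 2 libraries), which gave 13751 entries with 8 libraries and 13907 with 9, after the code was tested on simulated data. The submitters' own fold changes were not used.

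The 9 genes and all lists were chosen with earlier results of these data known. Named in the text are the 9 genes and their near-identical copies, and the 5 entries most like hsp-16.2. From each list other than the marker lists, up to 4 entries with the smallest p in any comparison and any called are named. Marker entries are not named individually, whether called or not. sip-1, sti-1 and unc-45 were named after their values were seen. The replicate numbers are the study's batches, so they pair libraries by batch. Deviations from genotype means of same-batch libraries correlated at 0.0868 to 0.520 over the 9 pairs. Alternatives covered the pseudocount, the filter on low values, scaling, the replicate block, the variance trend, the fold minimum, all 9 libraries and each library left out. Each p-value sets a difference against the spread of these libraries within groups, as moderated by limma. Positions come from the Ensembl annotation of WBcel235 and, for the hsp-16 twins, RefSeq names.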

Additional observations from a re-analysis of the deposited data

Results flagged for a closer look

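In 4 cases the difference between genotypes ran in opposite directions in 2 batches by at least 0.5 on the log2(FPKM + 0.25) scale, each batch holding 1 library of each genotype. For hsp-16.41 the difference of daf-1 from the double mutant was 1.25 in batch 1 and -0.81 in batch 2. For hsp-16.11 the same difference was 1.45 in batch 1 and -0.53 in batch 2. For hsp-70 the difference of daf-1 from N2 was 0.72 in batch 1 and -1.08 in batch 3. For hsp-12.6 the difference of the double mutant from N2 was 0.57 in batch 3 and -2.07 in batch 1, where double mutant replicate 1 is listed at 0. With 1 library per genotype and batch, these differences between batches were not tested. daf-1 replicate 1 is the daf-1 library of batch 1 in the cases of hsp-16.41, hsp-16.11 and hsp-70.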

How the results depend on the processing

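The counts of called genes among the 6 tested were 0 in each comparison, and moved as follows. In daf-1 against N2 the replicate block with 8 libraries and equal median scaling each called 2 (hsp-16.2 and hsp-16.41), no fold minimum gave 2 (hsp-1 and daf-21), and leaving out 1 library gave 0 to 2, with 2 only without daf-1 replicate 1. In daf-1 against the double mutant no fold minimum gave 2 (hsp-1 and daf-21) and leaving out 1 library gave 0 to 1 (hsp-12.6, without double mutant replicate 2). In the double mutant against N2, hsp-16.2 was the 1 gene called with a filter of 1 FPKM in 3 libraries, with the replicate block of 8 or 9 libraries and with equal median scaling, and leaving out 1 library gave 0 to 1 (without daf-1 replicate 1 or N2 replicate 2). Of the alternatives chosen after seeing the data, all 9 libraries except daf-1 replicate 1 called 1 gene, hsp-16.2, in each mutant against N2, and its replicate block called 1 in the double mutant. Directions turned as follows, and the cause was not tested. In daf-1 against N2, hsp-70 ranged from -1.0 to 0.14 on leaving out 1 library. In daf-1 against the double mutant, leaving out 1 library gave -0.12 to 0.73 for hsp-16.2, -0.77 to 0.32 for hsp-16.41 and -0.14 to 0.84 for hsp-16.11. There hsp-16.41 was also at 0.51 with all 9 libraries, with or without the replicate block, at 0.0092 with a pseudocount of 1, at 0.099 with the block and all 9 libraries except daf-1 replicate 1, and at 0.14 in batches 2 and 3 only, where F44E5.4 was at -0.081. In the double mutant against N2, daf-21 was at -0.21 with all 9 libraries, with or without the replicate block or daf-1 replicate 1, at -0.054 with the block of 8, at -0.36 with quantile normalization and at -0.28 in batches 2 and 3 only, and leaving out 1 library gave -0.083 to 0.089. hsp-1 was at 0.037 with equal median scaling and at -0.15 to 0.035 on leaving out 1 library, and hsp-12.6 at -1.34 to 0.027, with 0.31 in batches 2 and 3 only. In batch 3 against batches 1 and 2, leaving out 1 library gave -0.51 to 0.14 for hsp-70 and -0.57 to 0.17 for hsp-12.6. Equal median scaling moved the median of all entries to -0.16, -0.24 and 0.08 in daf-1 against N2, daf-1 against the double mutant and the double mutant against N2. Among all called entries, 86.8%, 88.7% and 40% were higher in these comparisons, against 61.2%, 61.7% and 44.6% with quantile normalization, 73.4%, 75% and 43.4% with equal median scaling and 86.1%, 54.6% and 82.8% with all 9 libraries.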
